A study of Mus musculus with 4 samples.

Results

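Transcripts of 40 genes of the cell division machinery were followed in 4 libraries of mouse embryonic stem cells. The genes encode cyclins, cyclin-dependent kinases (CDKs), their inhibitors and phosphatases, the pocket proteins and E2F factors, replication licensing proteins and mitotic regulators. They were chosen by symbol from a list drawn up with earlier results of these data known. All 40 were among the 25170 gene symbols of the 4 deposited tables. The groups were WT (the E14 line, wild type), SO (wild-type cells with the treatment labelled SO, which the series text calls an inhibitor), Ldha_KO (an Ldha knockout) and Ldhb_KO (an Ldhb knockout), with 1 library each. The sources used here give neither the dose and duration of SO nor the number of knockout clones. All cells grew in serum with LIF (leukaemia inhibitory factor) on gelatin, with no feeder cells named, and polyadenylated RNA was sequenced. Ldha and Ldhb encode the A and B subunits of lactate dehydrogenase, and the study asks how this enzyme relates to the 2-cell state, a programme of the early embryo that a few cells of a stem cell culture enter.

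In the textbook cell cycle, D-type cyclins with Cdk4 or Cdk6, and then E-type cyclins with Cdk2, phosphorylate the pocket proteins, which releases E2F factors that switch on genes for DNA replication. Inhibitors of the INK4 family block Cdk4 and Cdk6, and those of the Cip/Kip family act mainly on Cdk2 complexes. Cyclins A and B with Cdk1 then drive mitosis, which Cdc20 ends by activating the anaphase-promoting complex. Mouse embryonic stem cells are known for a short G1 phase, abundant cyclin E, low D-type cyclins and little INK4 inhibitor.

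Levels are given as FPKM (fragments per kilobase of transcript, scaled to library depth), so that genes can be compared per length. Differences are of log2(FPKM + 1), library minus WT unless stated, and a gene was called higher or lower at 2-fold (a difference of 1), with 1.5-fold (0.58) as a second rule. Of the 4 values given for a gene, the order is always WT, SO, Ldha_KO and Ldhb_KO, and of 3 differences or medians SO, Ldha_KO and Ldhb_KO. With 1 library per group there is no test and no replicate error, and each difference compares libraries, not conditions. The summed values were 471595 to 526316, and low values put the depths of SO, Ldha_KO and Ldhb_KO at 1.05, 0.995 and 1.05 times WT. Ldha was at 1774, 1711, 154 and 2237 FPKM and Ldhb at 76.5, 139, 158 and 5.74, so the targeted gene was lowest in the library labelled as its knockout. The 9 stem cell markers summed to 5735 to 6361 FPKM. Of 11 fibroblast or feeder markers, 8 or 9 were below 1 FPKM in each library, Dcn and Lum were at 0 in all 4, and Thy1 made up most of their sum of 42.2 to 52.4. Pdgfrb of this list was at 0.949, 3.35, 2.80 and 3.63 FPKM, lowest in WT, with differences of 1.16, 0.96 and 1.248, and its part in the results was not tested. The 10 markers of 2-cell-like cells summed to 10.3, 92.0, 67.8 and 9.91 FPKM, and their part in the results was not tested. The relative depths were read only from ratios near the most frequent one, which limited their spread in advance. Among 1484 low genes, 348 were used for WT and SO. The numbers were 347 of 1434 for WT and Ldha_KO, 328 of 1364 for WT and Ldhb_KO, and 350 of 1441 between the knockouts. The ratios used spread over 0.0167% (10th to 90th percentile) between WT and SO. They spread over 0.576% and 0.431% between WT and Ldha_KO or Ldhb_KO, and over 0.218% between the knockouts. The labels name no batch, and the part of this difference in spread in the results was not tested.

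All 40 genes passed the filter of 1 FPKM in at least 1 library, and each was above 1 FPKM in every library. Ccnd1, Ccnd2, Cdk6 and Ccne1 were lower than in WT by the 1.5-fold rule in all 3 libraries, and Cdkn2b and Rb1 were higher by it. Of these calls, Cdk6 in the knockouts ended under either rescaling of the libraries, at -0.51 to -0.54. Of the S-phase, G2 and mitotic genes, only Cdc6 in Ldha_KO and Plk1 in SO passed the 1.5-fold rule, and Cdc6 in Ldhb_KO missed it by little. The Plk1 call also ended under either rescaling. In the SO library, 3 of 40 genes were called higher (Cdkn2b, Rb1 and Rbl2) and 0 lower, where 2.69% and 0.472% of the 13142 genes kept were so called. With a pseudocount of 0.1, Ccnd2 and Cdk6 were also lower at 2-fold in SO. In Ldha_KO, 2 were higher (Cdkn2a and Cdkn2b; 2.65% of all genes) and 1 lower (E2f2; 1.06%). In Ldhb_KO, 2 were higher (Cdkn2a and Cdkn2b; 3.36%) and 1 lower (Ccnd1; 1.09%), and this last call was at the threshold and ended under either rescaling of the libraries (2 higher and 0 lower). At 1.5-fold, 3 genes were higher and 5 lower in SO (8.28% and 4.29% of all genes), 4 and 7 for Ldha_KO (8.94% and 6.31%), and 3 and 8 for Ldhb_KO (12.6% and 7.2%). The splits became 4 and 4 in SO with the summed value of WT, and 3 and 4 with the median ratio to WT set to 1. Under either rescaling they became 4 and 5 in each knockout.

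**Figure D1:**
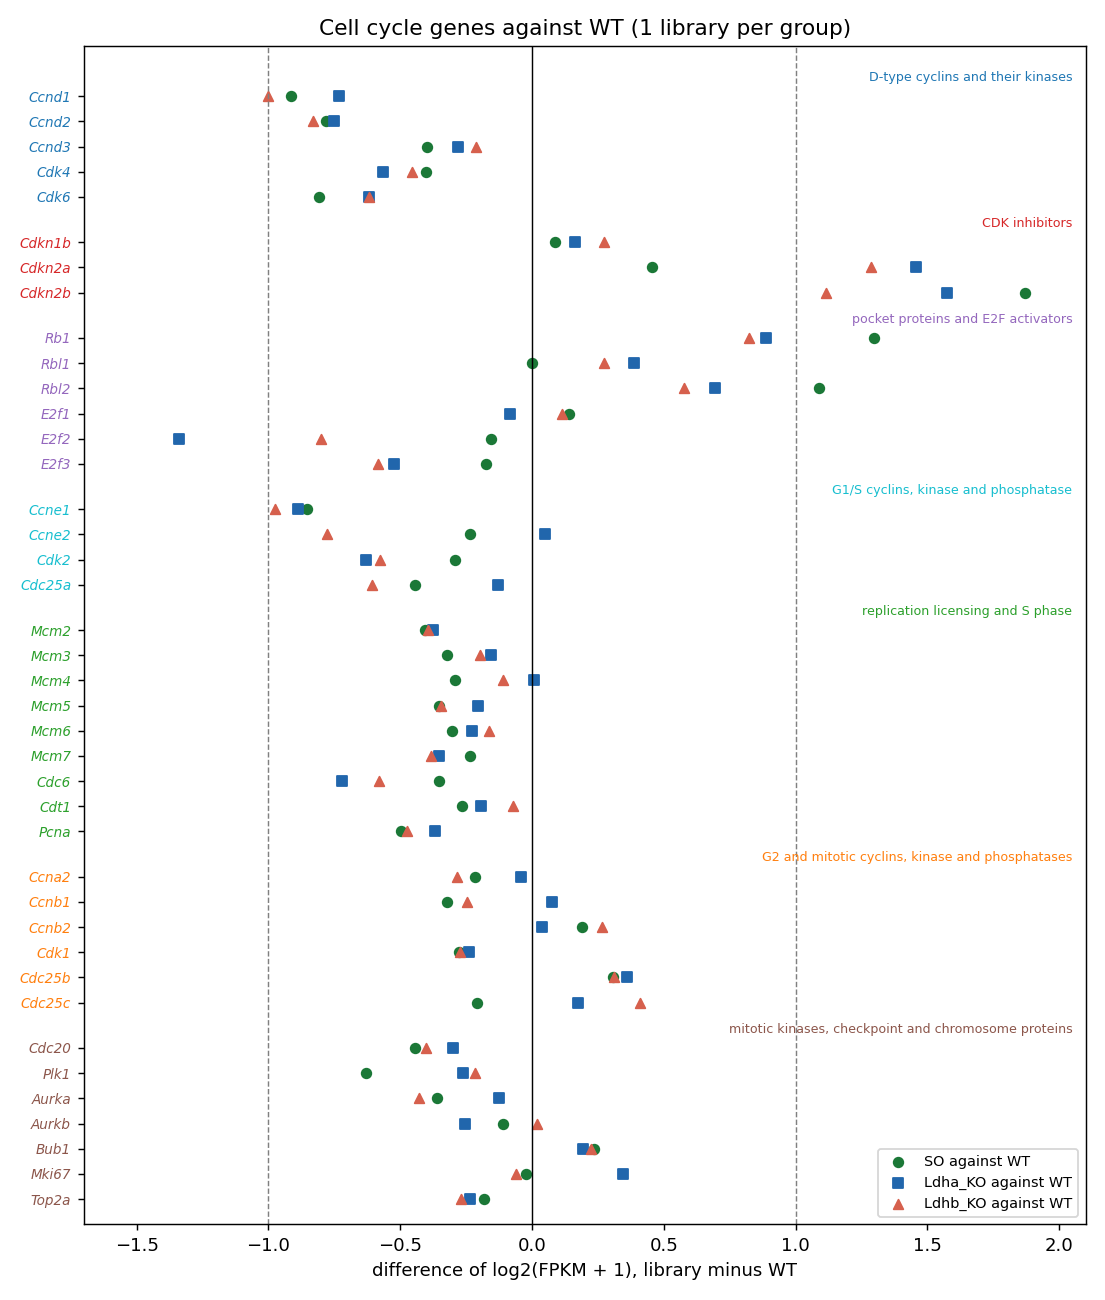
Difference of log2(FPKM + 1) against WT for each of the 40 genes (rows, coloured by role) in SO (circles), Ldha_KO (squares) and Ldhb_KO (triangles), 1 library each. Dashed lines mark 2-fold. Cdkn2b lies at 1.87, 1.57 and 1.12 at the right, and Ccnd1 and Ccne1 lie between -0.73 and -1.0003 at the left in all 3.

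The 40 genes had a median difference of -0.27, -0.20 and -0.26, against -0.04, -0.03 and -0.02 over all genes kept. Most of the 40 are abundant, and abundant genes as a whole had medians below 0. Of the 2394 genes that reached 50 FPKM, the medians were -0.22, -0.18 and -0.20, and the 24 cell cycle genes among them had -0.32, -0.24 and -0.28. After scaling every library to the WT sum, the median over all genes was 0.10, 0.09 and 0.08 and that of the 40 genes -0.11, -0.06 and -0.14. Bulk RNA cannot tell fewer cells in a phase from less RNA per cell. Together the 40 genes took 0.854%, 0.756%, 0.785% and 0.753% of the summed value.

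**Figure D2:**
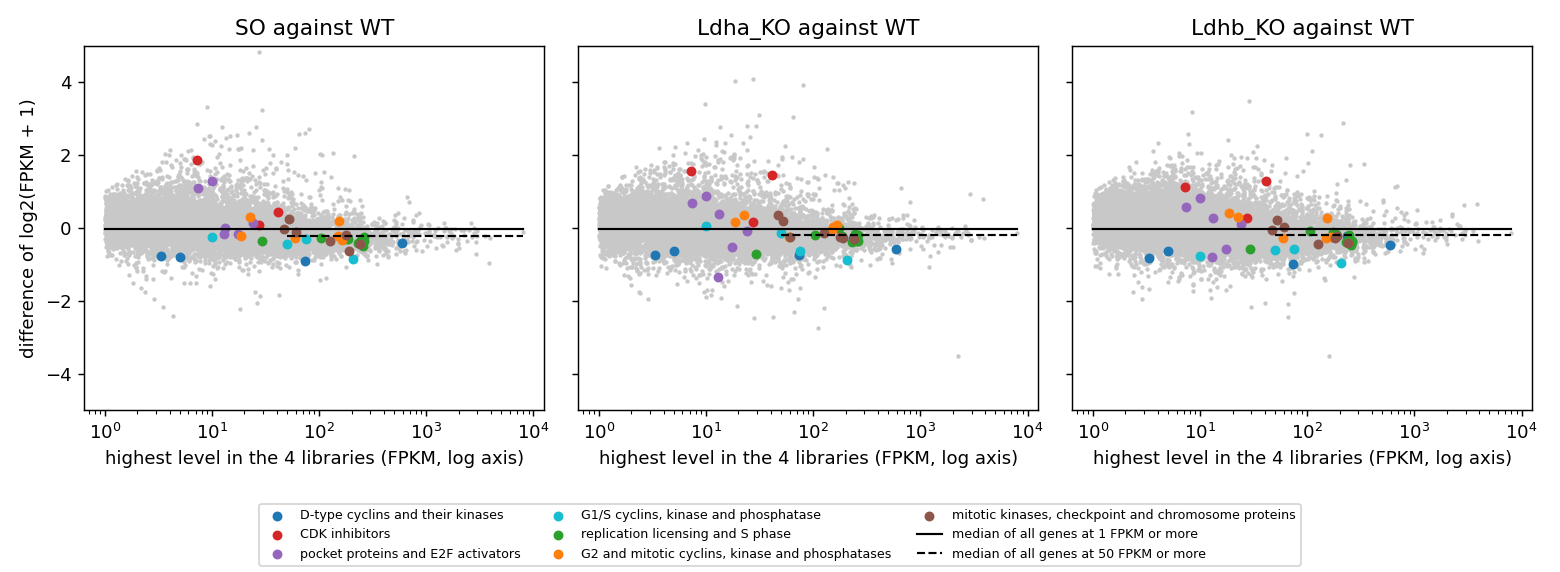
Difference of log2(FPKM + 1) against WT (vertical) by the highest level in the 4 libraries (FPKM, log axis) for all 13142 genes kept (grey) and the 40 cell cycle genes (coloured by role), 1 panel per library. Solid and dashed lines are the medians of all genes and of genes at 50 FPKM or more, which in SO are -0.04 and -0.22. The 9 replication genes of SO all lie lower than the dashed line, between -0.24 and -0.50. Cdc6 among them reaches only 29.4 FPKM, outside the range of that line. In Ldha_KO, Mcm3 and Mcm4 lie above the dashed line, and in Ldhb_KO Mcm3, Mcm4, Mcm6 and Cdt1 do.

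Among the D-type cyclins, which open G1 in response to growth signals, Ccnd1 was at 73.6 FPKM in WT against 38.6 (SO), 43.9 (Ldha_KO) and 36.3 (Ldhb_KO). Ccnd2 was at 3.32 FPKM in WT and at 1.52, 1.56 and 1.43 in the same order, and Ccnd3 at 236, 179, 194 and 204. WT was thus the highest library for each of the 3 cyclins. The differences were -0.91, -0.73 and -1.0003 for Ccnd1, -0.78, -0.75 and -0.83 for Ccnd2, and -0.40, -0.28 and -0.21 for Ccnd3. Ccnd3 made up 75.4% of the D-type cyclin FPKM in WT and 81.7%, 81.0% and 84.4% in the others, as Ccnd1 went from 23.5% to 17.6%, 18.3% and 15.0%. The low values of Ccnd2 make its difference depend on the pseudocount: at 0.1 it was -1.08, -1.04 and -1.16, which passes 2-fold in all 3.

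Cdk4, the main partner of these cyclins here, was at 588 FPKM in WT against 446 (SO), 397 (Ldha_KO) and 429 (Ldhb_KO), the highest level of the 40 genes in every library. Cdk6, its close relative, was at 4.99, 2.43, 2.90 and 2.90 FPKM. The differences were -0.40, -0.57 and -0.45 for Cdk4 and -0.81, -0.62 and -0.62 for Cdk6, which in SO reached -1.01 with a pseudocount of 0.1. All 5 genes of this group were below WT in all 3 libraries, with medians of -0.78, -0.62 and -0.62, and they kept that direction under both rescalings. With the filter of 5 FPKM, which leaves out Ccnd2 and Cdk6, the medians were -0.40, -0.57 and -0.45.

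Cdkn2b, an INK4 inhibitor, had the largest difference of the 40 genes in SO and in Ldha_KO. Its level was 1.249 FPKM in WT against 7.22 (SO), 5.69 (Ldha_KO) and 3.88 (Ldhb_KO), and WT was far below the other 3. The differences were 1.87, 1.57 and 1.12, and 50, 89 and 301 of all genes kept had larger ones. The level in WT rests on few fragments. At the rough depth of 12000000 to 13000000 fragments that low values point to, and on a transcript of 1390 bases, 21 to 23 fragments would give it, against 126 to 137 in SO, 94 to 102 in Ldha_KO and 68 to 74 in Ldhb_KO. These figures use another annotation than the deposited values and are approximate.

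Cdkn2a, its neighbour, encodes both the INK4A inhibitor and the p53 activator ARF from separate start sites, and the deposited values do not separate them. Its level was 14.4 FPKM in WT against 20.1 (SO), 41.3 (Ldha_KO) and 36.6 (Ldhb_KO). All 3 lay above WT, SO with a difference of 0.45, short of 1.5-fold, and the knockouts with 1.46 and 1.29. Cdkn2a and Cdkn2b together amounted to 2.64% of the FPKM of Cdk4 and Cdk6 in WT against 6.10% (SO), 11.8% (Ldha_KO) and 9.37% (Ldhb_KO). This share does not separate ARF, and it leaves out Cdkn2d, another INK4 inhibitor, at 18.9, 20.9, 14.4 and 19.2 FPKM. Cdkn2a and Cdkn2b together were at 15.7, 27.3, 47.0 and 40.5 FPKM, below Cdkn2d in WT and above it in the others. The change in the share is therefore not that of all INK4 inhibitors. Cdkn2c, also an INK4 inhibitor left out, was at 1.15, 0.831, 1.62 and 1.17 FPKM. A neighbour of Cdkn2a and Cdkn2b, Mtap, was at 67.0, 51.4, 51.5 and 48.0 FPKM, lower than WT in all 3. Gm12610, a noncoding gene that overlaps Cdkn2b, was listed at 0 in all 4. Cdkn1b, a Cip/Kip inhibitor, was at 22.3, 23.7, 25.1 and 27.1 FPKM, with differences of 0.09, 0.17 and 0.27.

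The start regions of Cdkn2a and Cdkn2b are shown because these genes carry the largest differences of the cell cycle genes followed in both knockouts. In SO this holds for Cdkn2b but not for Cdkn2a, at 0.45. Each region is given as the 250 bases before the start site in RefSeq on GRCm38.p6, 5′ to 3′ on the minus strand. The last 7 bases for Cdkn2b and the last 34 for the second Cdkn2a start are left out because GENCODE vM21 places them in an exon. Capitals mark an E2F motif (TTTCCCGC, TTTCGCGC, TTTGCCGC or TTTGGCGC) or a CHR motif (TTTGAA), searched on both strands. The first Cdkn2a window held no match, the second held 1 E2F match at 99 to 92 bases before the start, and that of Cdkn2b held 1 CHR match. The windows are chr4:89311040-89311282, chr4:89282193-89282442 and chr4:89294654-89294869. The Cdkn2a starts were not assigned to INK4A or ARF here, so the E2F match is credited to neither.
Cdkn2b: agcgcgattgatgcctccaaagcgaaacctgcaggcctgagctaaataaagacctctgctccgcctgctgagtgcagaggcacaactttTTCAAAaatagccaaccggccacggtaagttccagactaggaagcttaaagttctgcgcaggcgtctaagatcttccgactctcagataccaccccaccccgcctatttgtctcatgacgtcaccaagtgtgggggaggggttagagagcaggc
Cdkn2a, first start: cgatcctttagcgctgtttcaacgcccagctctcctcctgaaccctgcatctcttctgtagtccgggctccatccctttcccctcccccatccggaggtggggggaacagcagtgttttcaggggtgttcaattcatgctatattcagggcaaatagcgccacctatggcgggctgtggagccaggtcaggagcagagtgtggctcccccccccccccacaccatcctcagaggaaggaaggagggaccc
Cdkn2a, second start: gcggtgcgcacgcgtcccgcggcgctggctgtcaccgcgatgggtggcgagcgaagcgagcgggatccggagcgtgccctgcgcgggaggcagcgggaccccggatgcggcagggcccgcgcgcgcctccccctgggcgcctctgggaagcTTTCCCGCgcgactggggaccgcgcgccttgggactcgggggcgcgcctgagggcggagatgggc

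The pocket proteins, which hold E2F factors inactive, were higher than in WT or near it. Rb1, the retinoblastoma protein gene, was at 3.42 FPKM in WT against 9.86 (SO), 7.17 (Ldha_KO) and 6.82 (Ldhb_KO). Rbl2 (p130), the pocket protein known from resting cells, was at 2.95, 7.41, 5.39 and 4.89 FPKM. In both genes WT was the lowest library and SO the highest. The differences were 1.30, 0.89 and 0.82 for Rb1 and 1.09, 0.69 and 0.58 for Rbl2, so only SO passed 2-fold. For Rb1 in Ldha_KO the difference reached 1.05 with a pseudocount of 0.1 and 1.01 with the summed value of WT. Rbl1 (p107), which is known to be made in cycling cells, was at 9.89, 9.91, 13.3 and 12.2 FPKM. It supplied 60.8% of pocket protein FPKM in WT and 36.5% in SO, 51.4% in Ldha_KO and 51.0% in Ldhb_KO.

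The activating E2F factors parted from each other. E2f2 was at 12.9 FPKM in WT against 11.4 (SO), 4.48 (Ldha_KO) and 6.96 (Ldhb_KO), so that SO lay near WT and both knockouts lay below. The differences were -0.16, -1.34 and -0.80, and 40 of all genes kept had a lower one in Ldha_KO. E2f3 was at 17.5, 15.4, 11.9 and 11.4 FPKM, again lowest in the knockouts, with differences of -0.18, -0.52 and -0.59. E2f1 was at 21.7, 24.0, 20.4 and 23.5 FPKM, with differences of 0.14, -0.08 and 0.11, and in Ldha_KO its sign turned under both rescalings. E2f2 supplied 12.2% of the FPKM of the 3 factors in Ldha_KO and 16.6% in Ldhb_KO, against 24.7% in WT and 22.5% in SO.

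**Figure D3:**
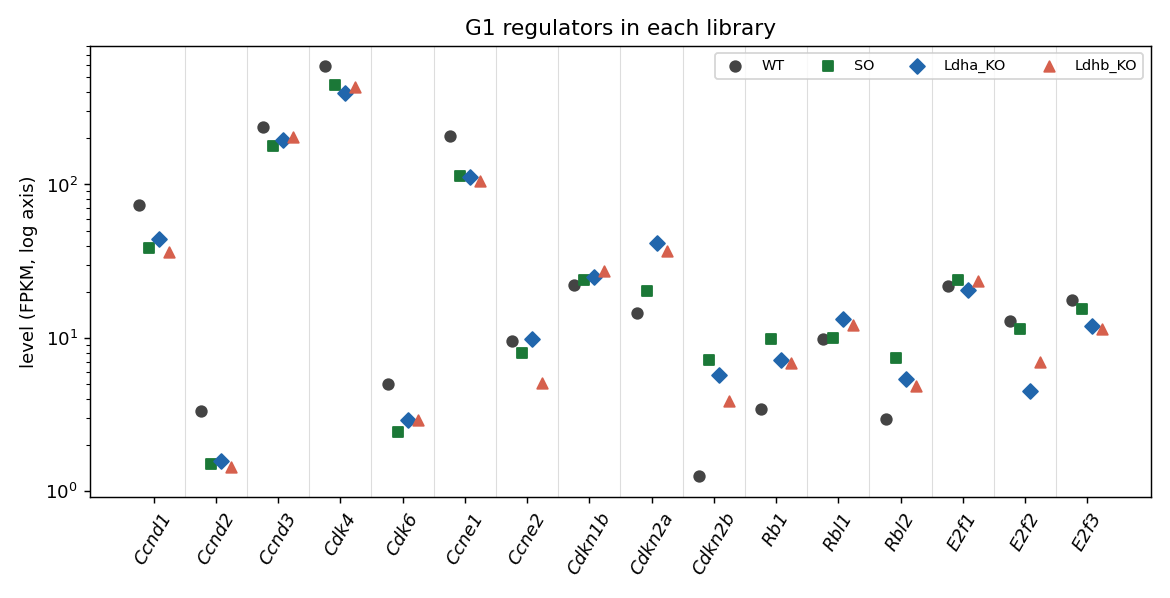
Level (FPKM, log axis) of 16 G1 regulators in WT, SO, Ldha_KO and Ldhb_KO, 1 point per library. WT is the highest point for Ccnd1, Ccnd2, Ccnd3, Cdk4, Cdk6 and Ccne1 and the lowest for Cdkn2a, Cdkn2b, Rb1 and Rbl2, and both knockouts are below SO for E2f2.

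Ccne1, the cyclin that takes cells into S phase and the main E-type cyclin here, was at 208 FPKM in WT against 114 (SO), 112 (Ldha_KO) and 105 (Ldhb_KO). The 3 other libraries lay close together, well below WT, with differences of -0.86, -0.89 and -0.97. It made up 95.6%, 93.5%, 91.9% and 95.4% of E-type cyclin FPKM. Ccne2 was at 9.48, 7.92, 9.86 and 5.11 FPKM, with only Ldhb_KO well below WT (-0.78). Cdk2, the kinase of both, was at 75.1, 61.1, 48.2 and 50.04 FPKM, and Cdc25a, the phosphatase that activates it, at 50.3, 36.7, 46.0 and 32.7. The differences were -0.29, -0.63 and -0.58 for Cdk2 and -0.44, -0.13 and -0.61 for Cdc25a, and the last gene's sign in Ldha_KO turned with the summed value of WT.

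Of the 9 genes of replication licensing and S phase, none was called at 2-fold, and only Cdc6 in Ldha_KO passed 1.5-fold. Over all genes kept, only 0.472%, 1.06% and 1.09% were lower at 2-fold and 2.69%, 2.65% and 3.36% higher. Genes of this group below WT numbered 9, 8 and 9. Mcm2 to Mcm7, the subunits of the replicative helicase, summed to 1352 FPKM in WT against 1083 (SO), 1156 (Ldha_KO) and 1116 (Ldhb_KO). Mcm2 was at 228, 172, 175 and 173 FPKM, Mcm3 at 243, 194, 218 and 211, and Mcm4 at 172, 140, 173 and 159. Mcm5 was at 261, 204.5, 227 and 205 FPKM, Mcm6 at 184, 149, 157 and 164, and Mcm7 at 264, 224, 206 and 202. The 6 subunits stayed near each other in every library, the highest being 1.54, 1.60, 1.44 and 1.33 times the lowest. Their differences lay between -0.40 and 0.01, and that of Mcm4 in Ldhb_KO (-0.11) turned sign under both rescalings.

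Cdc6, which loads the helicase at origins, was at 29.4 FPKM in WT against 22.8 (SO), 17.5 (Ldha_KO) and 19.3 (Ldhb_KO), and its -0.72 in Ldha_KO was the lowest difference of this group. Cdt1, its partner in loading, was at 105, 87.0, 91.6 and 99.7 FPKM, with differences of -0.27, -0.19 and -0.07, the last of which turned sign under both rescalings. Pcna, the sliding clamp of DNA polymerases, was at 255, 180, 197 and 183 FPKM, with differences of -0.50, -0.37 and -0.48. The group's medians were -0.32, -0.23 and -0.35, and -0.17, -0.09 and -0.23 with the summed value of WT. On the unscaled values, all genes at 50 FPKM or more had medians of -0.22, -0.18 and -0.20, above the group's in each library and nearest to it in Ldha_KO.

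E2F motifs were searched in 250-base windows for the 32 members with an entry in the RefSeq promoter table. At least 1 was found for 10 of 32 members (Cdkn2a, Rbl1, E2f3, Cdk2, Cdc25a, Mcm5, Mcm6, Mcm7, Cdc6 and Cdk1), against 2.16% of the 27025 genes in the table. The median differences of these 10 were -0.28, -0.23 and -0.36, and those of the other 22 were -0.29, -0.17 and -0.21. A match is a description of letters, not a bound site. Mcm6 held 3 matches, of which 2 overlap, the most among the 32 genes, and is shown for this reason. Its window at chr1:128359706-128359955 is printed from the minus strand with the E2F matches in capitals.
Mcm6: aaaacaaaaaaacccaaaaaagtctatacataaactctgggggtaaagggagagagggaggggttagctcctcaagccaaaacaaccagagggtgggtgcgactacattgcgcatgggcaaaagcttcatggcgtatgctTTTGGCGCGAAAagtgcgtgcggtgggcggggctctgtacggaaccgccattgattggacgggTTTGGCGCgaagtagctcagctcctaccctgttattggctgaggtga

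The cyclins of G2 and mitosis differed little from WT. Ccna2, cyclin A, was at 149 FPKM in WT against 128 (SO), 145 (Ldha_KO) and 122 (Ldhb_KO). Ccnb1 was at 156, 124, 165 and 131 FPKM and Ccnb2 at 126, 143, 129 and 151, so the B-type cyclins had no common order of libraries. Cdk1, their kinase, was at 59.1, 48.6, 49.9 and 48.8 FPKM, with differences of -0.28, -0.24 and -0.27. Cdc25b, a phosphatase that starts mitosis, was at 17.3, 21.7, 22.5 and 21.7 FPKM, and Cdc25c, its relative, at 13.6, 11.6, 15.5 and 18.4. Cdc25b was thus above WT in all 3 (0.31, 0.36 and 0.31), while Cdc25c was below in SO (-0.21) and above in the knockouts (0.18 and 0.41). The 6 genes had medians of -0.21, 0.06 and 0.01.

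Among mitotic regulators, Plk1, a kinase of mitotic entry and spindle assembly, was at 189 FPKM in WT against 122 (SO), 157 (Ldha_KO) and 163 (Ldhb_KO). Its -0.63 in SO was the only difference past 1.5-fold in this group, and it fell short of that rule under either rescaling of the libraries. Cdc20 was at 242, 178, 197 and 183 FPKM, and Aurka, a kinase of the spindle poles, at 125, 97.5, 115 and 92.9. Aurkb, the kinase of the chromosomal passenger complex, was at 59.4, 54.9, 49.6 and 60.3 FPKM. Top2a, the topoisomerase that untangles sister chromatids, was at 179, 158, 152 and 149 FPKM, and WT was highest. Bub1, a spindle checkpoint kinase, was at 44.5, 52.6, 51.1 and 52.1 FPKM, with WT lowest. Mki67, the proliferation marker Ki-67, was at 36.3, 35.8, 46.5 and 34.8 FPKM, with Ldha_KO alone above the others. Its differences were -0.02, 0.35 and -0.06, and the small negative ones turned sign when scaled to the WT sum, as did Aurkb in SO and Aurka in Ldha_KO.

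**Figure D4:**
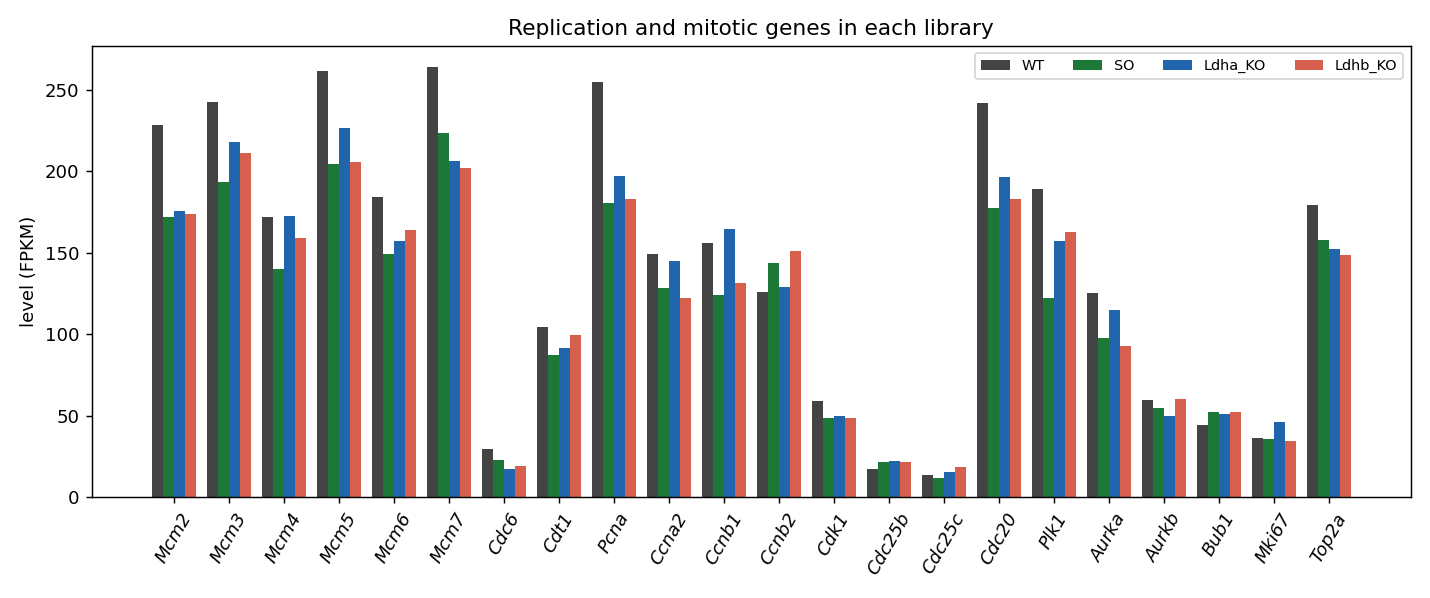
Level (FPKM, linear axis from 0) of the 22 genes of replication, G2 and mitosis, with 1 bar per library (WT, SO, Ldha_KO, Ldhb_KO). WT has the tallest bar for Mcm2, Mcm5, Pcna, Cdc20 and Plk1, and the bars of Ccnb2, Cdc25b and Bub1 are lowest in WT.

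The CHR motif, named for the cell cycle genes homology region of late cell cycle promoters, was found for 10 of 32 members against 18.3% of all genes, and the CCAAT box (CCAAT) for 22 of 32 against 37.5%. All 10 G2 and mitotic genes with an entry held a CCAAT box, and 5 of them held a CHR (Ccnb2, Cdk1, Cdc20, Mki67 and Top2a). Cdk1 and Top2a are shown as examples that hold both, with E2F, CHR and CCAAT letters of either strand in capitals, from the minus strand at chr10:69352939-69353162 and chr11:99024190-99024439. The Cdk1 window held 1 E2F match, 2 CHR and 3 CCAAT boxes, of which 1 CHR lies in the last 26 bases, an exon in GENCODE that is not printed. Top2a held 2 CHR and 6 CCAAT boxes. Members with a CHR had medians of -0.17, -0.24 and -0.27, and those without one -0.32, -0.20 and -0.23. Members with a CCAAT box had medians of -0.30, -0.23 and -0.27, and those without one -0.13, -0.14 and 0.02.
Cdk1: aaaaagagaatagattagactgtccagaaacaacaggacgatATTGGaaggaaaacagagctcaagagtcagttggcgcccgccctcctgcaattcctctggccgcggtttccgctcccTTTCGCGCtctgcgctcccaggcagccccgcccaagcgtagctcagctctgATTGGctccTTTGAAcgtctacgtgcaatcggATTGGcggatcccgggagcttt
Top2a: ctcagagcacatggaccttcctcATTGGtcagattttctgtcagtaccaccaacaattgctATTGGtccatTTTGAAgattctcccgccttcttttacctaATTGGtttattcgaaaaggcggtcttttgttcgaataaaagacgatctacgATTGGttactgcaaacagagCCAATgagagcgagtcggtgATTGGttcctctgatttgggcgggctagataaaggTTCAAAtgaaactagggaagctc

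Across roles, 24 of the 40 genes lay below WT in all 3 libraries and 9 above in all 3, against 31.2% and 25.8% of all genes kept. The 3 comparisons share the WT library, so these counts also carry whatever is particular to that library. The shares of all genes are not matched by level. Of all genes that reached 50 FPKM, 79.7%, 75.5% and 75.1% were below WT in SO, Ldha_KO and Ldhb_KO, each taken alone. Of the cell cycle genes at that level, 91.7%, 83.3% and 87.5% were. The 9 above were Cdkn1b, Cdkn2a, Cdkn2b, Rb1, Rbl1, Rbl2, Ccnb2, Cdc25b and Bub1. These are the 3 inhibitors among the 40 genes, the 3 pocket proteins and 3 mitotic genes. Rbl1 counts as above in SO by a difference of only 0.002. Ldhb_KO had 0 of the 5 CDK inhibitors outside the 40 genes below WT, while SO and Ldha_KO each had 3. These counts rest partly on differences near 0. Cdkn2c and Cdkn2d count as above in Ldhb_KO by only 0.015 and 0.021, and Cdkn3 as below in Ldha_KO at -0.07. Over all genes kept, the shares below WT were 54.3% (SO), 53.2% (Ldha_KO) and 52.3% (Ldhb_KO). The 24 below held all 5 genes of the D-type cyclin group and 8 of 9 replication genes. Of these 24, Cdc25a, Ccna2, Aurka and Cdt1 were above WT in 1 library after scaling to the WT sum. The 7 with mixed signs were E2f1, Ccne2, Mcm4, Ccnb1, Cdc25c, Aurkb and Mki67. In Ldhb_KO, Ccnd1, Ccne1 and Cdkn2b had differences of -1.0003, -0.97 and 1.12. The 2-cell-like markers summed to 9.91 FPKM in Ldhb_KO and 10.3 in WT, and their part in the differences of any library was not tested.

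Between the knockouts, 0 of 40 genes were called at 2-fold, where 1.67% of all genes were higher in Ldha_KO and 1.54% lower. At 1.5-fold, Ccne2 (9.86 FPKM in Ldha_KO and 5.11 in Ldhb_KO) was higher and 0 were lower, against 6.51% and 8.09%. The other differences of at least 0.40 in size were 0.48 for Cdc25a, 0.46 for Cdkn2b, 0.41 for Mki67 and -0.54 for E2f2, which at a pseudocount of 0.1 passed 1.5-fold. The median was 0.05, against -0.02 over all genes.

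Of 130 other genes of the pathway, listed in 8 groups, 128 were found and kept. Their medians were also below 0, at -0.17, -0.15 and -0.17. At 2-fold, 1 was higher and 0 lower in both SO and Ldha_KO, and 0 higher and 1 lower for Ldhb_KO. Over all genes kept, 2.69% were higher and 0.472% lower in SO, 2.65% and 1.06% for Ldha_KO, and 3.36% and 1.09% for Ldhb_KO, so the shares called higher among the 128 were below these. The higher gene was Cdkn1a, the Cip/Kip inhibitor p21, at 46.6 FPKM in WT against 125 (SO), 130 (Ldha_KO) and 84.4 (Ldhb_KO). The lower one was E2f8, a repressive E2F, at 29.8, 16.0, 16.6 and 13.4 FPKM, with differences of -0.85, -0.81 and -1.09. The 5 other CDK inhibitors had medians of -0.12, -0.07 and 0.24. Of these, Cdkn1c, a Cip/Kip inhibitor, was at 10.7, 5.68, 8.53 and 13.1 FPKM. Its differences were -0.80, -0.29 and 0.27, so it was lower at 1.5-fold in SO. The 13 other E2F, DREAM complex and mitotic transcription factors had medians of -0.11, -0.19 and -0.17. Among them, Lin9 was at 11.7, 10.05, 13.8 and 9.74 FPKM. All 7 genes of deoxynucleotide synthesis were below WT in all 3 libraries, with medians of -0.30, -0.43 and -0.49, among them the thymidylate synthase gene Tyms at 27.6, 19.1, 20.3 and 18.4 FPKM and Dctd, a deaminase, at 37.6, 34.3, 23.1 and 26.3.

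The 33 genes of origin recognition and the replisome had medians of -0.16, -0.20 and -0.16, with Pold2, a polymerase delta subunit, at 74.3 FPKM in WT against 53.7 (SO), 48.0 (Ldha_KO) and 81.0 (Ldhb_KO), and the flap nuclease gene Fen1 at 83.0, 71.2, 76.4 and 50.9. Ubiquitin ligase genes had -0.23, -0.25 and -0.22. In that group Cul1 was at 68.8, 41.7, 48.0 and 44.7 FPKM and Skp2, whose product marks the inhibitor p27 for destruction, at 41.1, 31.6, 28.6 and 24.4. Spindle checkpoint and kinetochore genes had -0.17, -0.16 and -0.19, with Mad2l1 at 119, 96.7, 97.7 and 76.5 FPKM, Birc5 at 262, 217, 200.3 and 220.4 and Spc24 at 48.0, 38.0, 39.2 and 49.3. Condensin, cohesin and motor genes had -0.05, -0.05 and -0.12, with the mitotic kinesin Kif20a at 111, 116, 118 and 74.1 FPKM and the securin gene Pttg1 at 48.4, 70.5, 58.1 and 44.0. Checkpoint kinases had -0.02, -0.06 and -0.15, with Wee1, an inhibitor of Cdk1, at 28.1, 27.8, 41.3 and 24.6 FPKM, so that it was highest in Ldha_KO. In the same group Chek1, the replication checkpoint kinase, was at 32.5, 25.6, 30.6 and 29.0 FPKM and Atm, the kinase of DNA breaks, at 8.25, 8.06, 8.04 and 6.22. Stag2, a cohesin subunit, was at 29.9, 24.4, 24.0 and 24.5 FPKM, with WT highest, and Cdc27, of the anaphase-promoting complex, at 27.1, 23.8, 27.0 and 19.5. None of the genes in this paragraph reached 2-fold.

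Reads can be shared with copies of some members. RefSeq names pseudogenes of Ccnb1, Ccnb2, Ccnd3 and Pcna, so the values of these 4 genes are less certain. The sources used here do not say whether counting used the strand, and reads of Cdkn2b and of the overlapping Gm12610 could then not be told apart.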

How the data were processed

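RNA sequencing of 4 mouse embryonic stem cell libraries was used, 1 for each of WT, SO, Ldha_KO and Ldhb_KO, grouped by the treatment label. Per the submitters' processing notes, the build was mm9 and the tools named were edgeR 3.26.8, HTSeq 0.11.2, Bowtie2 2.3.4.3 and SAMtools 1.9. The sources used here give neither their roles nor the gene annotation. The deposited values were read as FPKM made by the authors. That reading comes from the values: they are not whole, their totals differ, and low values rise in steps of a size particular to each gene. They could equally be RPKM, and the number of reads is unknown.

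Genes with at least 1 FPKM in at least 1 library were kept (13142 of 25170). Differences of log2(FPKM + 1) were computed with a pseudocount of 1, which understates changes of low genes, and calls used 2-fold or 1.5-fold. No test was possible with 1 library per group. The code for differences and calls was tested on simulated data for correct arithmetic, which gives no error rate. The 40 members, their roles and the other lists were chosen with earlier results of these data known. All members are named, with pathway genes called at 2-fold or with the largest difference in their list. One item that this rule would name is not reported here. Mtap and Gm12610 were named for their position, after values were seen. Cdkn2c and Cdkn2d were named as INK4 inhibitors outside the share of Cdkn2a and Cdkn2b, also after values were seen. Cdkn1c was named as a Cip/Kip inhibitor that was lower in SO, again after values were seen. Alternatives were a pseudocount of 0.1, no filter, a filter of 5 FPKM, and rescaling to the summed value of WT or to a median ratio to WT of 1. A filter of 50 FPKM was added after seeing the data. Relative depth came from the most frequent ratio of values below 0.2. Promoter windows came from RefSeq on GRCm38.p6 and were not joined to coordinates of the deposited values. Python 3.11.15, numpy 2.4.6 and pandas 2.3.3 were used.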

Additional observations from a re-analysis of the deposited data

How the results depend on the processing

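The direction of the median over the 40 genes against WT was below 0 under all 6 alternatives. After scaling each library to the WT sum it was -0.11 in SO, -0.058 for Ldha_KO and -0.14 for Ldhb_KO, and with the median ratio to WT set to 1 it was -0.16 in SO and -0.13 in Ldhb_KO. These rescalings raise every difference, and the median over all genes then lay at 0.06 to 0.10. Either rescaling left 0 genes lower at 2-fold in Ldhb_KO. At 1.5-fold it left 5 lower in each knockout and 4 lower in SO. A pseudocount of 0.1 gave 2 genes lower at 2-fold in each comparison with WT, and 1 gene lower at 1.5-fold in Ldha_KO than in Ldhb_KO. A filter of 5 FPKM left 3 genes lower at 1.5-fold in SO, because Ccnd2 and Cdk6 drop out. A filter of 50 FPKM, added after seeing the data, left 0 genes higher at 2-fold or 1.5-fold in any comparison, 0 lower at 2-fold in Ldha_KO and 3 lower at 1.5-fold against WT in each library, because the members called higher, and E2f2, E2f3, Ccnd2, Cdk6, Ccne2 and Cdc6 among those called lower, do not reach it. Of all genes, 353 were higher and 62 lower at 2-fold in SO, 348 and 139 for Ldha_KO and 441 and 143 for Ldhb_KO, and a pseudocount of 0.1 gave 808 and 182, 868 and 321, and 1141 and 311. Higher genes made up 71.5% of those called in Ldha_KO and 75.5% in Ldhb_KO, and 83.3% and 86.4% after scaling to the WT sum. No paired analysis was possible because each group has 1 library, and for the same reason no replicate could be left out. The precision of low values, as of Cdkn2b in WT, is limited by an unknown depth.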
